A study of Mus musculus with 30 samples.

Results

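Ribosome footprints were set against total RNA in the testis of mice that lack Ythdc2 at postnatal day 8. The 12 libraries of that age, out of 30 in the series, were taken by their labels. They came from 3 Ythdc2 -/- (homozygous) animals and 3 Ythdc2 +/+ animals, all C57BL/6J, and each animal gave a total RNA and a footprint library from whole testis. The labels name no agent and do not describe the allele further. All 15145 genes of the authors' deposited table of that age were used. For each gene the knockout against wild-type effect in total RNA was subtracted from the effect in footprints, and this value is called the difference.

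A ribosome shields a short stretch of mRNA from nuclease, and sequencing such stretches counts ribosomes on each transcript. Footprints that change more or less than the RNA itself can mark a change in ribosomes per transcript, which can come from initiation, elongation or the share of transcripts in use. YTHDC2 is a helicase of the YTH domain family. It works on RNA together with MEIOC and RBM46 and binds the exonuclease XRN1, and male germ cells without it fail to carry through the switch from mitosis to meiosis. In mouse testis of this age most germ cells are spermatogonia, and the first of them are approaching meiotic entry.

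The effects in the authors' deposited table were read as log2 values, and they may have been shrunk by a transformation, so they are not plain folds. No value per animal was used, so no SD between animals can be given for any difference, and the depth of the libraries is unknown here. The transcript of Ythdc2 itself was not analysed here, which leaves the genotype without a check in these data. Markers of testis cell types were in the table, with 23 of 23 for Sertoli cells, 16 of 17 for Leydig cells and 23 of 23 for undifferentiated spermatogonia, but their levels were not analysed here.

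Most genes lay close to no difference. The median difference over the 15145 genes was 0.0049, the quartiles were -0.05 and 0.06, and the SD over genes was 0.10. The difference lay above 0 in 52.4% of genes and below 0 in 47.6%. Footprint effects were spread more widely than total RNA effects, with SDs over genes of 0.10 and 0.06, and the footprint effect was the larger in size in 10042 genes (66.3%). Over these genes, which come from the same libraries, the difference followed the footprint effect (Pearson r 0.84) more closely than the total RNA effect (r -0.35). The difference is computed from these effects, so both values follow from their SDs and the correlation between them (Pearson r 0.22).

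Genes whose RNA differed most between the genotypes tended to differ less in footprints. Of the 11 genes at or under -0.263 in total RNA, the log2 of a fold of 1.2, the median effect was -0.30 in total RNA and -0.12 in footprints. At the other end, 22 genes at or over 0.263 had medians of 0.35 and 0.30, and 21 of the 22 had a footprint effect above 0. A line through all genes had a slope of 0.37 (footprint effect per unit of total RNA effect, Pearson r 0.22). The difference contains the total RNA effect with a minus sign, so part of this pattern is arithmetic, and the residual from that line is given below for some of the lists and genes.

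**Figure D1:**
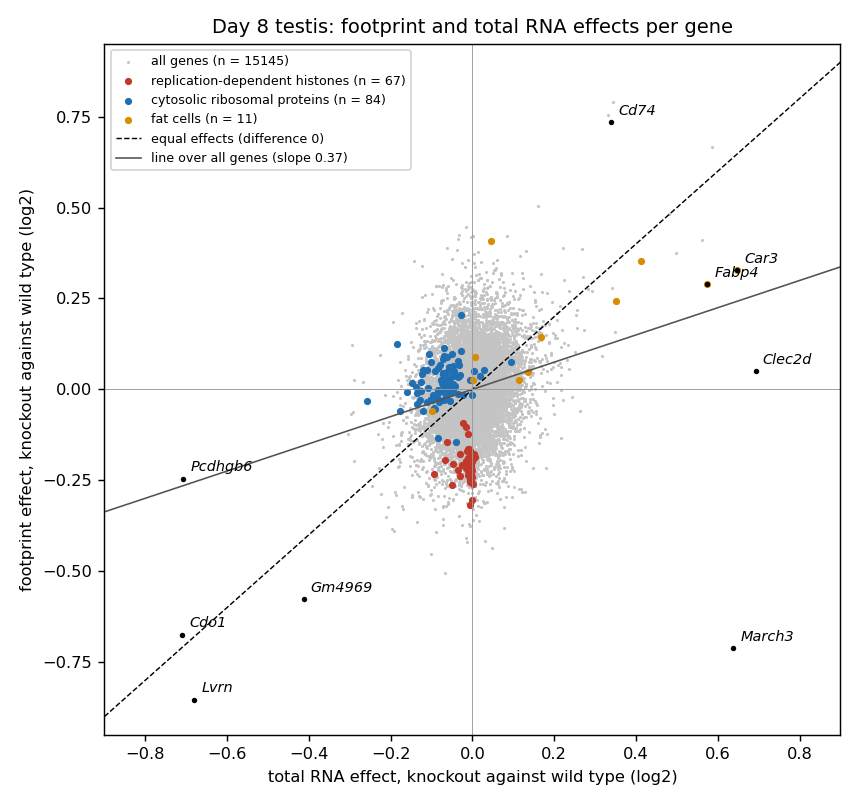
Total RNA effect (x axis) and footprint effect (y axis) of each of 15145 genes, knockout against wild type at day 8 (log2). The histones sit near 0 on the x axis and around -0.20 on the y axis, the ribosomal proteins sit left of the dashed line of equal effects, and the dark points are genes named in the text.

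A difference of at least 0.263 in size was reached by 279 genes (1.84%), 147 of them higher (0.971%) and the rest lower (0.872%) in footprints relative to RNA in the knockout. In 218 of the 279 the effects in footprints and total RNA had opposite signs, and in 259 the footprint effect was the larger. Choosing genes by a large difference favours both features by arithmetic. Over all genes the footprint effect was the larger in 66.3%. The effects had the same sign in 4048 of 7524 genes with total RNA between -0.1 and 0, and in 3814 of 6663 between 0 and 0.1. An adjusted p of 0.05 in translation or buffering was passed by 31 of the 279 in the authors' deposited table (anota2seq), 11 in translation and 22 in buffering, against 1.33% and 1.49% of all genes. The translation effect had the sign of the difference in 10 of the 11, and the buffering effect had the sign of total RNA minus footprint in 18 of the 22. No gene passed 0.05 in footprints alone in the authors' deposited table (anota2seq, smallest adjusted p 0.254); unadjusted p-values were not used here.

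The lowest differences reached further from 0 than the highest. March3, which encodes a membrane-bound ubiquitin ligase, stood at 0.64 in total RNA and -0.71 in footprints in the authors' deposited table, a difference of -1.35. Clec2d, a C-type lectin-like ligand of a natural killer cell receptor, stood at 0.69 and 0.05 there, a difference of -0.64. The RNA of both was higher in the knockout, while their footprints were lower or near 0. Il15ra (interleukin 15 receptor), Nfkbie (an inhibitor of NF-kappa-B), Nox4 (a superoxide-producing oxidase), H60b, Clec2l, Serpina3k, Shank3 and Als2cl followed with differences between -0.49 and -0.40. In these 8 the total RNA effects ran from -0.07 to 0.18 and the footprint effects from -0.50 to -0.22 in the authors' deposited table.

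Myct1 had the highest difference, 0.50, with effects of -0.14 in total RNA and 0.35 in footprints in the authors' deposited table. Cpeb4, whose protein binds cytoplasmic polyadenylation elements and regulates translation, had a difference of 0.46, and its footprint effect was 0.42 beside -0.03 in total RNA, as the authors' deposited table has it. Tnfrsf19 (a tumour necrosis factor receptor family member), Ncan (a brain proteoglycan), Txndc2 (a sperm thioredoxin), Stfa1, Filip1, Pck1 (an enzyme of glucose synthesis) and Smad6 (an inhibitor of BMP signalling) had differences from 0.42 to 0.46. The protocadherin gene Pcdhgb6, at 0.46, was lower in both library kinds, at -0.71 in total RNA and -0.25 in footprints in the authors' deposited table. It shares exons with other genes of its cluster, so its reads are uncertain. Of these 20 highest and lowest genes, none passed an adjusted p of 0.05 in translation in the authors' deposited table (anota2seq), against 1.33% of all genes. In buffering Clec2d (0.000683), Nfkbie (0.0468) and Pcdhgb6 (0.00726) passed there (anota2seq), against 1.49% of all genes. The buffering effect of Nfkbie, -0.24 in the authors' deposited table, had the sign opposite to that of total RNA minus footprint.

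Replication-dependent histone genes had the lowest median of the 34 gene lists with at least 5 measured members. These genes encode the core and linker histones that package newly made DNA, and their mRNAs end in a stem-loop in place of a poly(A) tail. Of 67 measured genes 66 had a difference below 0, against 47.6% of all genes, and the median difference was -0.19 with quartiles of -0.21 and -0.18. In the authors' deposited table their median effect was -0.0057 in total RNA and -0.20 in footprints. In bulk testis, fewer cells of a type and less RNA per cell cannot be told apart in either library kind.

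All histone classes showed it. The median difference was -0.18 for the 6 H1 genes, -0.19 for the 18 H2A genes, -0.19 for the 18 H2B genes, -0.21 for the 12 H3 genes and -0.22 for the 13 H4 genes. By position, 54 genes on chromosome 13 had a median of -0.195 and 10 on chromosome 3 one of -0.159. The lowest were Hist1h2ba, a testis-expressed H2B, at -0.31, Hist1h4f at -0.30 and Hist1h1e, a linker histone, at -0.26. The exception was Hist1h1t, the testis-specific linker histone of spermatocytes, at 0.07, with effects of -0.07 in total RNA and 0.006 in footprints in the authors' deposited table.

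Their total RNA effects varied little from gene to gene, from -0.09 to 0.0071 with an SD over genes of 0.019, against 0.057 over all genes, as the authors' deposited table gives them. The labels name ribosomal RNA depletion or poly(A) selection without saying which library had which, and the latter would leave out most of these transcripts. Its part in the difference was not tested. Copies of a histone class are near-identical and share reads, so the 67 values are not independent. None of the 67 passed an adjusted p of 0.05 in translation or buffering in the authors' deposited table (anota2seq, smallest 0.124 and 0.375), where 1.33% and 1.49% of all genes did.

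Variant histone genes with polyadenylated mRNA did not share the difference, though their footprints were lower too. Over 10 of 16 listed genes the median difference was -0.03, with 3 above 0. In the authors' deposited table their median effect was -0.08 in total RNA, all 10 below 0, and -0.10 in footprints, 8 of 10 below 0. Their residual had a median of -0.08, with 8 of 10 below 0. In difference H2afx, which marks DNA breaks once phosphorylated and whose mRNA also has a stem-loop form, stood at -0.16. H1fx, a linker histone variant, stood at -0.15, while H2afv stood at 0.15. H1fx passed in translation with an effect of -1.08 in the authors' deposited table (anota2seq, adjusted p 0.0255). Genes that process histone mRNA had a median difference of 0.02 over 12 genes, and DNA replication genes one of -0.00047 over 34. Of the DNA replication genes 30 lay below 0 in total RNA and 27 in footprints in the authors' deposited table. Lsm10, a subunit of the U7 particle that cuts histone mRNA, had a difference of 0.21 and a translation effect of -0.97 in the authors' deposited table (anota2seq, adjusted p 0.00938), so both measures disagree in sign.

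**Figure D2:**
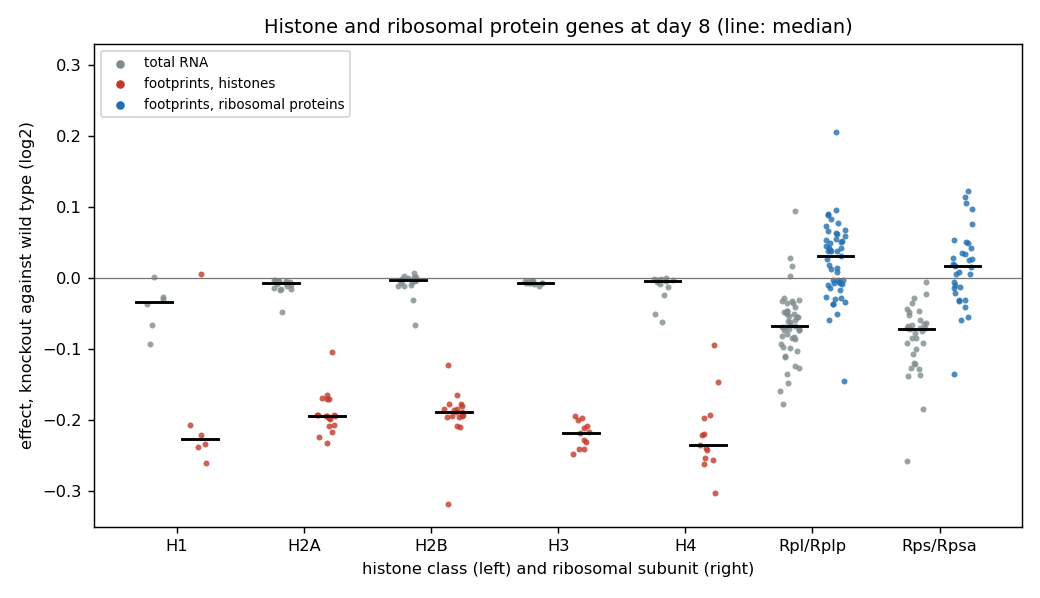
Effect of each gene (y axis, log2, knockout against wild type at day 8) in total RNA and in footprints, by histone class and ribosomal subunit (x axis); a point is a gene and a line the median. Histone footprints lie near -0.20 in every class with total RNA near 0, and ribosomal protein genes lie below 0 in total RNA and around 0 in footprints.

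Cytosolic ribosomal protein genes stood at the other end. Of 84 measured genes 80 had a difference above 0, against 52.4% of all genes, and the median difference was 0.09 with quartiles of 0.06 and 0.13. In the authors' deposited table their median effect was -0.07 in total RNA, where 80 of 84 lay below 0, and 0.02 in footprints, where 52 lay above 0. The residual from the line over all genes had a smaller median of 0.04, with 73 of 84 above 0 against 50.7% of all genes. Their median translation effect had the opposite sign, -0.0088, in the authors' deposited table. None of the 84 passed 0.05 in translation there (anota2seq, smallest adjusted p 0.215), where 1.33% of all genes did.

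The median difference was 0.09 over 49 large subunit genes and also 0.09 over 33 small subunit genes. Rps27rt, a retrogene copy of Rps27, was the highest at 0.31, followed by Rpl39 at 0.23, Rps14 at 0.22 and Rps19 at 0.20. Among those below 0 were Rpl21 (-0.10), Rps28 (-0.05) and Rpl36al (-0.02). Rps14 was the member past 0.05 in buffering, where 1.49% of all genes passed. Its buffering effect was -0.30 in the authors' deposited table (anota2seq, adjusted p 0.0183), and the gene lies on the chromosome of Ythdc2. Rps27 and Rps27rt are close copies, so their reads may be shared.

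Mammalian ribosomal protein mRNAs begin with a C followed by a run of pyrimidines, by which their translation responds to growth signals through mTOR. The bases around the start of 5 of these genes show how far the RefSeq starts carry this feature in genes of high and of low difference. Each line gives 10 bases before and 20 bases from the start of transcription (RefSeq, GRCm38.p6, 5′ to 3′ on the gene's strand), with the run of C and T that begins with a C at the start in capitals.
Rps27rt: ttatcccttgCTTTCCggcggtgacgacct
Rps27: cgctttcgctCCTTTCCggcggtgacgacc
Rpl38: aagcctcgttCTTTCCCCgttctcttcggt
Rps10: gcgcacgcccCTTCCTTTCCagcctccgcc
Rpl39: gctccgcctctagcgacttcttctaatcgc
Rps27rt lies at chr9:114982720-114982749 on the minus strand, Rps27 at chr3:90213629-90213658 (minus), Rpl38 at chr11:114668570-114668599 (plus), Rps10 at chr17:27635225-27635254 (minus) and Rpl39 at chrX:37085203-37085232 (minus).

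The printed starts do not sort by difference, but they are a choice from more that were looked at. Of those not printed, Rps28 (-0.05), Rpl36al (-0.02) and Rpl7l1 (0.02) had no run of C and at least 4 C or T. Rps12 (0.18) and Rplp0 (0.17) had none either. Rps27rt, Rps27 and Rpl38 have runs of 6, 7 and 8 pyrimidines and differences of 0.31, 0.18 and 0.16, whereas Rps10 has a run of 10 and a difference of 0.0079. Rpl39 has no such run at this RefSeq start and a difference of 0.23. A run of C and at least 4 C or T, searched on the gene's strand at the start itself, was found in 13 of the 54 ribosomal protein genes with a single RefSeq start and in 2.51% of all 32851 RefSeq promoters. A start was given for 63 of the 84 ribosomal protein genes (75%) and for 78.2% of all genes, under the 80% needed here, so a comparison of genes with and without the run is void.

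Among translation factors the median difference was 0.03 over 40 initiation factor genes, 29 of them above 0, and 0.04 over 11 elongation and release factor genes, 9 of them above 0. The residual had a median of 0.01 over the initiation factors, with 25 of 40 above 0. Tpt1, a growth-related protein whose mRNA carries the same pyrimidine start in mammals, had a difference of 0.16. Its RefSeq start showed no such run. Eef2, the translocation factor, stood at 0.13, Eef1a1, which delivers aminoacyl-tRNA, at 0.10 and Eif4b, a helicase cofactor of initiation, at 0.16. Gspt2, a release factor, was the lowest of these at -0.09. No member of either list passed 0.05 in translation in the authors' deposited table (anota2seq), where 1.33% of all genes did. In buffering 1 initiation factor passed, against 1.49% of all genes.

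Nuclear-encoded subunits of oxidative phosphorylation lay above 0 in 65 of 84, against 52.4% of all genes, with a median difference of 0.04. Their residual from the line had a median of 0.0092, 47 of 84 lying above 0, and their median translation effect was -0.02 in the authors' deposited table. Atp5g2, a subunit of the ATP synthase ring, had the highest difference at 0.16 and Atp5s, a factor of the ATP synthase, the lowest at -0.08. Atp5s nonetheless had a translation effect of 1.65 in the authors' deposited table (anota2seq, adjusted p 0.00334). In buffering 2 of the 84 were higher and 4 lower there (anota2seq, smallest adjusted p 0.000407), against 0.766% and 0.72% of all genes. Mitochondrial ribosomal protein genes had a median difference of 0.03, with 50 of 78 above 0 and Mrps28 the highest at 0.26. Of the 78, 1 was higher in translation and 2 were lower in buffering (anota2seq, smallest adjusted p 0.0233 and 0.00111), against 0.667% and 0.72% of all genes.

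**Figure D3:**
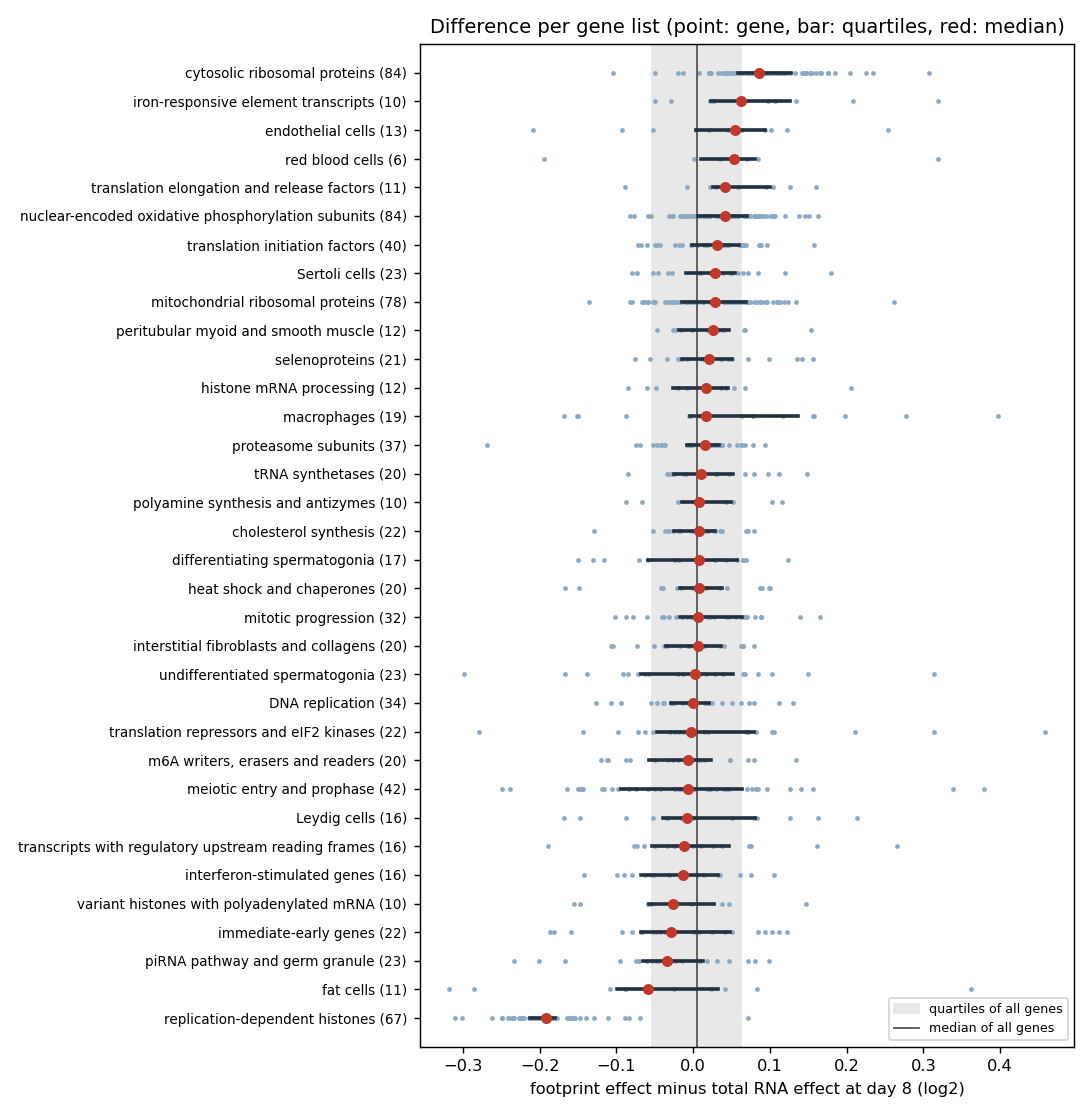
Footprint minus total RNA effect at day 8 (x axis, log2) of each measured member of the 34 gene lists (rows, number of members in brackets), with quartiles as bars and medians as red points, over the quartiles of all genes (grey band). Histones at -0.19 and ribosomal proteins at 0.09 have the lowest and highest medians.

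The list of transcripts with iron-responsive elements had a median difference of 0.06 over 10 genes, 8 of them above 0. It also counts Aco1 and Ireb2, the genes of the iron regulatory proteins themselves. Iron regulatory proteins bind this element in the 5′ part of ferritin, Alas2 and ferroportin mRNAs and hold back translation, and in the 3′ part of Tfrc mRNA they protect it from decay. Alas2, the first enzyme of heme synthesis in red cell precursors, had a difference of 0.32 and a buffering effect of -0.31 in the authors' deposited table (anota2seq, adjusted p 0.0191). Slc40a1, the iron exporter ferroportin, had a difference of 0.21 and a translation effect of 0.81 in the authors' deposited table (anota2seq, adjusted p 0.0200). The ferritin genes Ftl1 and Fth1 stood at 0.13 and 0.11, and the iron importer Slc11a2 at 0.10. Tfrc, the transferrin receptor, stood at -0.05 and Aco1, which encodes an iron regulatory protein, at -0.03. The translation effects of Ftl1 and Fth1 had the opposite sign to their differences, -0.16 and -0.14, in the authors' deposited table (anota2seq, adjusted p 0.629 and 0.739). Red blood cell genes, which include Alas2, had a median difference of 0.05 over 6 of 11 genes. Their total RNA effects lay between -0.23 and -0.00032 in the authors' deposited table, all 6 below 0, and the part of a change in red blood cells in these values was not tested. The residual of this list had the opposite sign, -0.06.

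Endothelial genes showed the same reversal. Their median difference was 0.05, with 10 of 13 above 0, and their median residual was -0.03, while 12 of 13 had a total RNA effect below 0 in the authors' deposited table. Egfl7, a secreted factor of endothelium, stood at 0.25 and Flt1, a receptor of vascular endothelial growth factor, at -0.21. No endothelial gene passed in translation or buffering in the authors' deposited table (anota2seq, smallest adjusted p 0.124 and 0.0637), where 1.33% and 1.49% of all genes did.

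Fat cell genes had the second lowest median difference, -0.06 over 11 of 14 genes. In the authors' deposited table their median effect was 0.14 in total RNA and 0.14 in footprints, and 10 of 11 lay above 0 in total RNA, from -0.10 to 0.65. Car3, a carbonic anhydrase abundant in fat, stood at 0.65 in total RNA and 0.33 in footprints there, a difference of -0.32. Fabp4, a fatty acid carrier, stood at 0.57 and 0.29 there, a difference of -0.29. Adipoq, the hormone adiponectin, stood at 0.41 and 0.35 there, and Cfd, adipsin, at 0.35 and 0.24. Retn, resistin, went the other way with a difference of 0.36.

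Fat genes held 4 of the 101 genes lower in translation (0.667% of all genes). These were Car3 (-1.85, adjusted p 0.0286), Adipoq (-1.79, 0.0255), Fabp4 (-1.52, 0.0362) and Plin1, the coat protein of fat droplets (-1.52, 0.00248), in the authors' deposited table (anota2seq). Car3, Fabp4 and Adipoq were also higher in buffering and Pparg, the regulator of fat cell formation, was lower (anota2seq, the authors' deposited table), against 0.766% of all genes higher and 0.72% lower. The residual of the list had the opposite sign, with a median of 0.08, since a footprint effect of 0.14 is more than the line gives for that total RNA effect. How much fat tissue came with each testis is not known from the labels, and its part in the result was not tested.

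Genes of meiotic entry and prophase were lower in both library kinds by like amounts. Over 42 of 47 listed genes the median effect was -0.09 in total RNA and -0.10 in footprints in the authors' deposited table. The median difference was -0.0072, with 20 above 0 and 22 below 0. The residual had a median of -0.06, with 11 of 42 above 0. In translation 2 of these genes were higher, 4 were lower and 36 did not pass, by the authors' deposited table (anota2seq), where 0.667% of all genes were called in each direction.

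The called meiotic genes moved in several ways. Msh5, a MutS homolog of meiotic crossing-over, was at -0.06 in total RNA and 0.27 in footprints in the authors' deposited table, a difference of 0.34 with a translation effect of 0.99 (anota2seq, adjusted p 0.0162). Gm4969, also called Meiosin, a transcription factor of meiotic entry, was at -0.41 and -0.58 there, a difference of -0.16 with a translation effect of -3.07 (anota2seq, adjusted p 9.34e-05). Those 2 genes had a translation effect of the same sign as the difference.

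Prdm9, which places recombination hotspots, had a translation effect of -4.92 in the authors' deposited table (anota2seq, adjusted p 0.0170) and yet a difference of 0.38. Terb1, of the complex that holds telomeres at the nuclear envelope, had one of 5.02 in the authors' deposited table (anota2seq, adjusted p 1.11e-05) and a difference of -0.12. Hormad2, a chromosome axis protein, and Mei4, a factor of meiotic double-strand breaks, were lower in translation with differences of 0.00037 and 0.02. Signs therefore disagreed in Prdm9 and Terb1, and the differences of Hormad2 and Mei4 lay close to 0.

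None of Meioc, Rbm46 and Xrn1 passed 0.05 in translation or buffering, by the authors' deposited table (anota2seq, smallest adjusted p 0.305). Meioc, its binding partner in meiotic entry, was the lowest of the meiotic list at -0.25, with effects of -0.01 in total RNA and -0.26 in footprints in the authors' deposited table. Rbm46 stood at -0.02 and Xrn1 at 0.02. After Meioc, the lowest were Ccdc36 (Iho1), a factor of meiotic double-strand breaks, at -0.24, Gm4969, the axis gene Hormad1 at -0.15 and Spata22, a recombination factor, at -0.15. Syce1 and Syce3, of the central element of the synaptonemal complex, stood at 0.16 and 0.14.

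Spermatogonial lists had median differences of 0.0023 over 23 genes of undifferentiated spermatogonia and 0.0077 over 17 of differentiating spermatogonia. Their median residuals were below 0, at -0.0027 and -0.03. Lhx1, a homeobox gene of the stem cell pool, stood at -0.30 with a translation effect of -1.84 in the authors' deposited table (anota2seq, adjusted p 0.00122). Nanos3, an RNA-binding repressor of germ cells, stood at 0.31 with a translation effect of 0.49 in the authors' deposited table (anota2seq, adjusted p 0.0728). Genes of the piRNA pathway and germ granule had a median of -0.03, with 8 of 23 above 0. In all, 23 of the 34 lists had a median within 0.03 of that of all genes. Among them were initiation factors, mitochondrial ribosomal proteins, Sertoli cells, Leydig cells, macrophages, interstitial fibroblasts, heat shock genes and genes with regulatory upstream reading frames.

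The authors' translation test asks what remains of the footprint effect after a regression on total RNA for each gene. At an adjusted p of 0.05 it called 202 genes (anota2seq, the authors' deposited table), with 101 in each direction. Of these 128 had a difference with the sign of the translation effect, and 10 of those also reached 0.263 in size. The median size was 0.90 for the translation effect and 0.09 for the difference. The slope of each regression, worked back from the effects, lay within -1 to 2, the default limits of anota2seq, in 57.4% of all genes and in 0 of the 202. Its median size was 13.6 in the called genes and 1.16 over all genes. A large slope multiplies the total RNA effect, so the translation effect of these genes does not measure the difference. In Prdm9 a slope of -26.2 multiplied a total RNA effect of -0.19.

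The 10 genes where test, sign and size met are few and of mixed function. Higher were Cfap126, a protein of motile cilia, at a difference of 0.36, Msh5 at 0.34, Asnsd1 at 0.32, Gm28551 at 0.32, Cyp4v3, a fatty acid hydroxylase, at 0.31 and Gm29394 at 0.30. Lower were Car3 at -0.32, Lhx1 at -0.30, Tecpr2, a factor of autophagy, at -0.29 and Fabp4 at -0.29. The authors' own translation class holds these 10 and 15 others, 25 in all (0.165% of genes), 15 higher and 10 lower. Every gene of that class had a difference of at least 0.277 in size with the sign of its translation effect. Adjusted p in the class reached 0.0991 (anota2seq), and 1 of 25 slopes lay within the limits, in the authors' deposited table. Size and sign may be conditions for entry to the class, so neither is counted as agreement between the measures. Among all 202 genes called in translation, 128 matched in sign and 11 reached 0.263 in size. Cd74, the invariant chain of antigen presentation, was in this class with effects of 0.34 in total RNA and 0.74 in footprints in the authors' deposited table, a difference of 0.40.

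**Figure D4:**
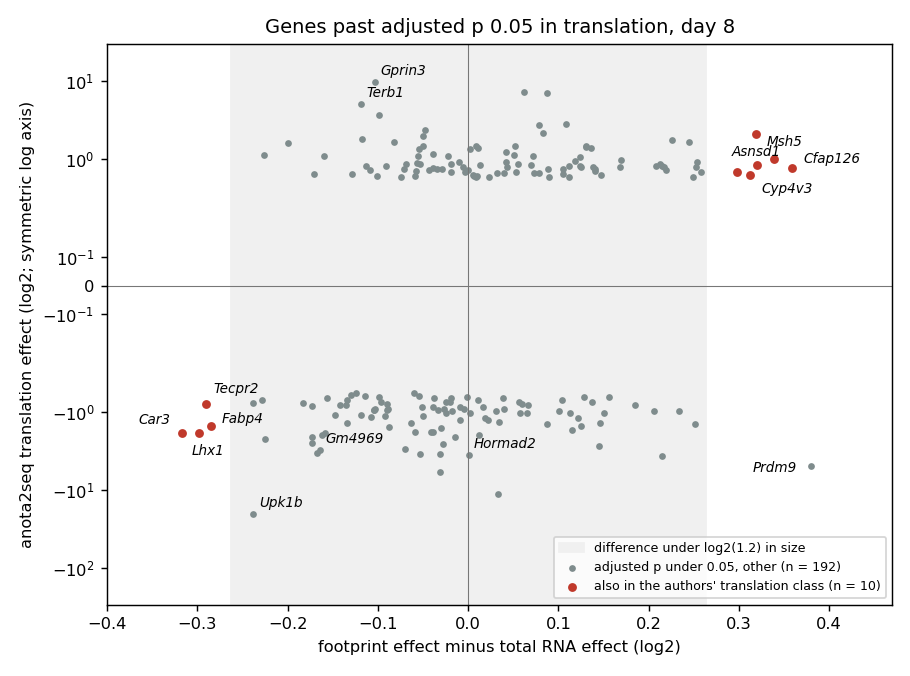
Footprint minus total RNA effect (x axis, log2) and anota2seq translation effect (y axis, log2, symmetric log axis) of the 202 genes past an adjusted p of 0.05 at day 8; grey marks a difference under log2(1.2) in size. The 10 genes in red lie outside the grey band with matching signs, and Prdm9 lies outside it with opposite signs.

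Buffering, the total RNA effect that remains after a regression on footprints, was higher in 116 genes (0.766%) and lower in 109 (0.72%) at an adjusted p of 0.05 in the authors' deposited table (anota2seq). Of these 106 had the sign of total RNA minus footprint, 18 of them with a size of at least 0.263. Slopes lay within -2 to 1 in 64 of the called genes (28.4%) and in 93.3% of all genes. Among the 18, lower in footprints relative to RNA were Clec2d, Sox11 (a transcription factor, -0.37), Lsamp (a cell adhesion protein, -0.36), Plaur (the urokinase receptor, -0.34), Spata24, Ticam2, Car3, Zfp773, Fabp4 and Ccdc81. Higher were Pcdhgb6, 2810408A11Rik (0.39), Vtn (vitronectin, 0.36), Rom1 (0.34), Alas2, Cnksr2, Tmem150c and Smim24 (0.27). The slopes of Plaur, Zfp773, Pcdhgb6, 2810408A11Rik, Vtn, Tmem150c and Smim24 lay above the limit of 1, from 1.11 to 6.25. The authors' buffering class holds none of these, and Car3 and Fabp4 are in their translation class. The authors' buffering class held 125 genes (0.825%), all with slopes within the limits, and their differences were as small as 0.00048 in size. Only 6 genes passed in both tests.

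Of the 8 genes past 0.05 in total RNA (0.0528%; anota2seq, the authors' deposited table), 4 had a difference between -0.17 and 0.04. Cdo1, cysteine dioxygenase, had a difference of 0.04 and Slfn5 one of -0.06, beside -0.16 for Gm4969. The residual had the other sign in Cdo1 (-0.41) and Slfn5 (0.15). Lvrn, an aminopeptidase, had effects of -0.68 in total RNA and -0.85 in footprints in the authors' deposited table, a difference of -0.17. Clec2d, Car3, Fabp4 and Pcdhgb6 differed by more, and in each the footprint effect was the smaller in size. These 8 were listed after their values were seen.

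Genes near Ythdc2 held more large differences than all genes did. Of 230 genes within 20 Mb of it on chromosome 18, 9 (3.91%) reached 0.263, against 1.84% of all genes. Lower were March3, Spata24 (-0.33), Ticam2, an adaptor of Toll-like receptor signalling (-0.33), Pcdhb10 (-0.32) and Apbb3 (-0.31), and higher were Pcdhgb6, Cd74, Slc35a4 (0.27) and Tmem173, the STING receptor (0.26). The median size of the total RNA effect was 0.05 there and 0.03 over all genes, and that of the difference 0.07 and 0.06. Buffering calls made up 6.09% of these genes, against 1.49% of all genes. What the region shares besides its position was not tested. Among whole chromosomes the share of large differences ran from 1.05% on chromosome 4 to 3.06% on chromosome 10.

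The day 10 table gave the same measure in other animals, 3 Ythdc2 -/- against 2 heterozygous and 1 wild-type animal. Across the 14607 genes of both tables, which are not independent replicates, the differences at both ages had a Spearman rho of -0.0060 and a Pearson r of 0.011. Of 137 genes at 0.263 or over at day 8, 68 had a difference above 0 at day 10, and of 129 at or under -0.263, 68 lay below 0 at day 10. Histone genes had a median difference of -0.02 at day 10 with 18 of 67 above 0, and ribosomal protein genes one of 0.0036 with 46 of 84 above 0. The meiotic list had a median of -0.06 at day 10 with 7 of 42 above 0, beside -0.0072 at day 8. No test of these differences between ages was made.

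A difference of at least 0.263 in size was reached by 2.36% of genes at day 10, and a few genes had one of the same sign at both ages. March3 stood at -1.35 and -1.21, Clec2d at -0.64 and -0.58, and Pcdhgb6 at 0.46 and 0.42. Car3 stood at -0.32 and -0.54 and Fabp4 at -0.29 and -0.53. The others were Kif6, Rai2, Ina, Rad9a, Six4 and G6pd2, so that 5 genes were higher and 6 lower at both ages. Large differences of opposite sign were found in 11 genes, with Filip1 at 0.42 and -0.26 as an example.

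**Figure D5:**
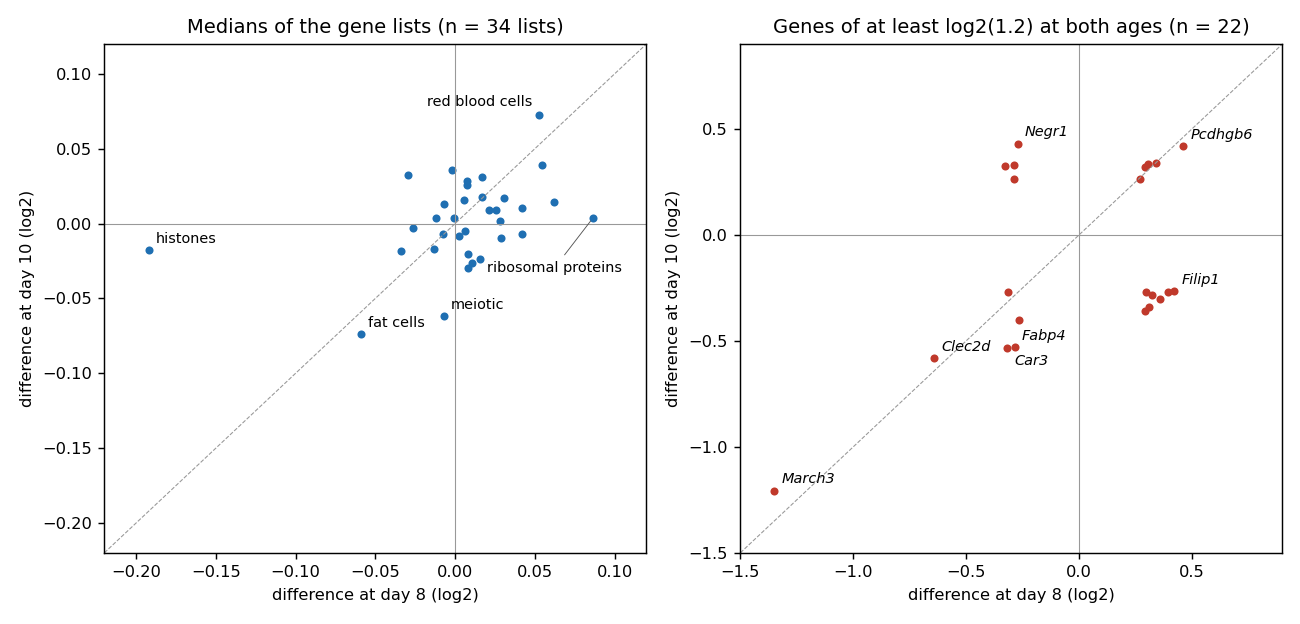
Left, median footprint minus total RNA effect of 34 gene lists at day 8 (x axis) and day 10 (y axis); right, the same for the 22 genes of at least log2(1.2) in size at both ages (log2; the dashed line marks equal values). Histones and ribosomal proteins lie away from 0 at day 8 and near 0 at day 10, and March3, Clec2d and Pcdhgb6 lie near the line.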

How the data were processed

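Total RNA and ribosome footprints of the same testes were sequenced. RNA was extracted with Trizol, per the labels' protocols. The submitters' processing notes name STAR, an aligner, and the genome build mm10. The counting program, annotation release and scaling are not given in the sources of this work. The authors deposited log2 effects (base not stated, read as log2) and adjusted p-values that came from anota2seq 1.14.0, for total RNA, footprints, translation and buffering, and a class per gene, per the file headers. Direction was taken from the description, which names knockout first.

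The footprint effect minus the total RNA effect was computed per gene, with Python 3.11.15, pandas 2.3.3, numpy 2.4.6, scipy 1.17.1 and matplotlib 3.10.9, and checked on simulated effects. Only the authors' adjusted p-values were used, at 0.05. A difference of 0.263, log2 of 1.2, was counted as large. No error between animals could be computed. The labels number the animals, and replicates were taken as separate animals.

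Gene positions and start sequences came from RefSeq (GRCm38.p6, the assembly of mm10), by symbol or older symbol; 98.6% of genes had a position. No protein table was used. Of 37 gene lists 34 had at least 5 measured members and 2 had none, mitochondrially encoded genes and long noncoding RNA hosts. Lists, genes and rules were chosen with earlier results of these data known. Genes named were YTHDC2's partners, the 10 highest and 10 lowest differences with proper symbols, called genes with a matching and large difference, genes of the authors' classes, and extreme members of each list; genes past 0.05 in total RNA, near Ythdc2 or large at both ages, and further members of the lists described in full, were added after their values were seen. Alternatives were other thresholds, centring, residuals, the translation effect, and leaving out genes near Ythdc2 or measured at one age only. Symbols are as in the table; 18 rows repeat a symbol.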

Additional observations from a re-analysis of the deposited data

How the results depend on the processing

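No paired analysis was possible because the deposited effects pool the animals, and for the same reason no animal could be left out. The counts followed the threshold. At log2(1.1) the large differences numbered 1225 higher and 1180 lower, and at log2(1.5) 0 higher and 2 lower. Higher and lower translation genes numbered 28 and 44 at an adjusted p of 0.01, 164 and 170 at 0.1, and 229 and 235 at 0.15 (anota2seq, the authors' deposited table). They numbered 6 and 5 with a large difference, 63 and 65 with a matching sign, 0 and 0 with a slope in range, and 15 and 10 in the authors' class. Higher and lower buffering genes numbered 43 and 50 at 0.01, 164 lower at 0.1, 259 and 264 at 0.15, 11 and 11 with a large difference, 56 and 50 with a matching sign, 33 and 31 with a slope in range, and 62 and 63 in the authors' class. Without genes near Ythdc2, counts stayed within 1.5 times. For the list medians, 199 alternative values stayed within the spread over members, but 27 of these also changed sign. They included selenoproteins (-0.0333) with the translation effect, and Leydig cells (0.0468) and differentiating spermatogonia (-0.0337) with the residual. Among lists that leaned to one side or lay farthest from all genes, 5 values reversed, with the translation effect for ribosomal proteins (-0.00876) and oxidative phosphorylation (-0.0160), and with the residual for endothelial cells (-0.0271), red blood cells (-0.0593) and fat cells (0.0781). Among single genes the residual reversed Car3 (0.0847) and Fabp4 (0.0721) and left Pcdhgb6 at 0.02. The difference takes off the whole total RNA effect and the residual only 0.37 of it, the slope of the line. Reversals with the residual therefore follow the total RNA effect by arithmetic. The cause of the reversals with the translation effect was not tested. Bins of protein length were not run for want of a protein table, and the comparison by pyrimidine start, in its looser form too, was void. Depth sets a limit that cannot be stated here, since no counts were used.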
